A study of Caenorhabditis elegans with 11 samples.

Results

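Sirtuins are enzymes that remove acetyl and other acyl groups from proteins and consume the cofactor NAD+ in doing so, which ties their activity to the metabolic state of the cell. The 4 sirtuin genes of Caenorhabditis elegans, sir-2.1, sir-2.2, sir-2.3 and sir-2.4, were picked by gene name among the 45461 gene rows of the count table. SIR-2.1 is the worm counterpart of mammalian SIRT1, a nuclear deacetylase that binds the FOXO factor DAF-16 together with 14-3-3 proteins and is the sirtuin most studied for lifespan. SIR-2.2 and SIR-2.3 resemble the mitochondrial SIRT4 and bind biotin-dependent carboxylases. SIR-2.4 belongs with SIRT6 and SIRT7 and promotes the entry of DAF-16 into the nucleus under stress by limiting its acetylation by CBP-1.

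Total RNA of whole animals of the wild-type strain N2 (var. Bristol) was sequenced. The animals had been moved after the L4 stage to agar with 5 mM 2-deoxy-D-glucose (DOG), a glucose analogue that blocks glycolysis. The 11 libraries fell into 4 ages counted from the L4 stage, with 3 libraries each at 1, 5 and 10 days and 2 libraries at 20 days. Every group carried the same strain and the same compound, was fed heat-inactivated bacteria and was freed of its offspring by washing, so that the comparisons below were between ages under DOG. Age and time on DOG rose together and cannot be told apart. Libraries of animals without DOG were not analysed here. Each library pooled many worms, and the labels do not say whether replicates came from separate cultures, so p-values measured only the spread between these samples, which may be technical.

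Depth lay between 23648292 and 58499127 counts on genes per library and went along with age, at 23648292 to 40277713 at 1 day and 53042713 to 58499127 at 20 days. Levels below are normalised CPM, the counts of a gene relative to the total of its library, scaled between libraries by the trimmed mean of M values (TMM), unless given per length. Changes are log2 values, older over younger age, from edgeR's quasi-likelihood test fitted to all 14773 genes with at least 100 counts in total, and a gene was called where its Benjamini-Hochberg adjusted p was under 0.01. All 4 sirtuin genes passed this filter. The threshold was passed by a large part of the transcriptome, since 91.4% of the tested genes differed over the 4 ages, and the calls of single sirtuin genes have to be read against that.

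Markers of the tissues of an adult worm were detected, but their balance moved with age. Summed over 5 genes each, markers of the epidermis lay at 26.8 to 27.5 CPM at 20 days, against 2141 to 2249 CPM at 1 day, and markers of body wall muscle at 600.3 to 629.9 CPM, against 4792 to 4954 CPM, with 5 of 5 genes called lower in both lists. Most of the epidermal sum at 1 day was col-19, at a mean of 2155 CPM, against 14.0 CPM at 20 days. At 10 over 1 days 1 epidermal gene was called higher, 3 lower and 1 was not called. sqt-3 had a mean of 36.2 CPM at 10 days, against 29.4 CPM at 1 day and 11.6 CPM at 20 days. The 5 intestinal markers summed to 228 to 232 CPM at 20 days, against 788 to 843 CPM at 1 day, with 4 of 5 lower and 1 not called. The 5 neuronal markers summed to 329 to 335 CPM at 20 days, against 186 to 200 CPM at 1 day, with 4 higher and 1 lower. Most of this sum was snb-1, at a mean of 245 CPM at 20 days, while rab-3 was at 4.25 CPM, against 7.49 CPM at 1 day. The 10 markers of germ line and oocytes summed to 10594 to 10826 CPM at 1 day, 14875 to 15426 CPM at 5 days, 12773 to 12809 CPM at 10 days and 11354 to 11449 CPM at 20 days, with 1 called higher and 9 lower at 20 over 5 days. The 5 embryonic markers summed to 3.24 to 4.26 CPM at 1 day, 4.30 to 5.77 CPM at 5 days, 10.3 to 11.2 CPM at 10 days and 6.24 to 6.63 CPM at 20 days. Of them 3 were called higher and 1 lower at 20 over 1 days. The 6 sperm markers summed to 8.45 to 10.7 CPM at 1 day and 4.28 to 5.09 CPM at 5 days. At 10 days the sum was 4.15 to 4.82 CPM and at 20 days 8.94 to 9.90 CPM. Most of the 20-day sum was fer-1, at a mean of 5.56 CPM, and spe-11, at 3.24 CPM. Of the 5 tested at 20 over 1 days 1 was called higher (fer-1, 1.67), ssp-16 and msp-3 were called lower, and spe-9 and spe-11 were not called. ssp-16 had 0 counts in all 5-day libraries and msp-3 0 to 3 counts per library from 5 days on. In such bulk samples fewer cells of a type and less RNA per cell cannot be told apart. Levels are also relative to the library total, so a lower marker sum does not by itself mean fewer cells. The part of tissue balance in the sirtuin values was not tested.

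Under DOG each of the 4 sirtuin transcripts had its highest mean at another age, but which age was highest was not tested. The difference to the next highest age was not called for sir-2.3 (20 over 1 days) and sir-2.2 (5 over 1 days). For sir-2.1 (10 over 5 days) and sir-2.4 (5 over 1 days) it was called but lost its call in some alternatives, as given below. sir-2.1 was highest at 10 days and lower again at 20 days. sir-2.2 was highest at 1 day and lower at 10 and 20 days. sir-2.3 was lower at 5 and 10 days than at 1 and 20 days, and sir-2.4 was highest at 5 days and fell after that. The overall test across ages gave adjusted p-values of 6.34e-08 for sir-2.1, 5.41e-06 for sir-2.2, 8.34e-06 for sir-2.3 and 1.31e-09 for sir-2.4 (quasi-likelihood F test of edgeR, adjusted after Benjamini-Hochberg), beside the 91.4% of all tested genes that passed.

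**Figure D1:**
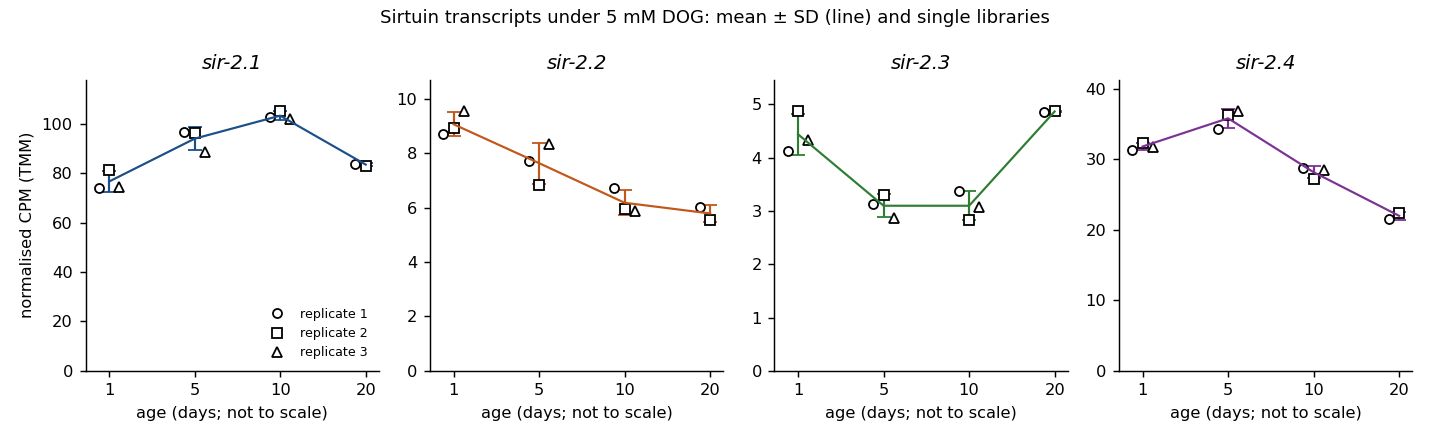
Normalised CPM (vertical axis, starting at 0 and scaled separately for each gene) of sir-2.1, sir-2.2, sir-2.3 and sir-2.4 at 1, 5, 10 and 20 days on 5 mM DOG (horizontal axis, equally spaced), with single libraries as open symbols and the mean ± SD as a line. sir-2.1 reached its top mean of 103 CPM at 10 days, sir-2.4 its top mean of 35.8 CPM at 5 days, sir-2.2 declined to 5.78 CPM, and sir-2.3 lay at 3.10 CPM at 5 and at 10 days, below its other ages.

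sir-2.1 (R11A8.4), the SIRT1-type deacetylase, lies on the minus strand of chromosome IV and has 2 annotated transcripts with a summed exon length of 2033 bases, coding for up to 607 residues in the WBcel235 annotation. Its normalised CPM was 74.1, 81.4 and 74.4 at 1 day, 96.8, 96.4 and 88.7 at 5 days, 103, 105 and 102 at 10 days, and 83.9 and 83.1 at 20 days. The libraries of the 4 ages did not overlap, and the 20-day libraries stood between those of 1 and 5 days.

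The mean of sir-2.1 was 93.97 ± 4.54 CPM at 5 days and 76.6 ± 4.14 CPM at 1 day (SD, n = 3 each), a rise by a log2 change of 0.29 (SE 0.04, adjusted p 4.77e-06, edgeR's quasi-likelihood test). At 10 days the mean was 103 ± 1.71 CPM (SD, n = 3), a further rise of 0.14 over 5 days (SE 0.04, adjusted p 0.0081), which lay close to the threshold. Without the third 5-day library that step was 0.10 (adjusted p 0.0562), and it also lost its call, at a change of 0.12 to 0.16 and an adjusted p between 0.0107 and 0.0363, without the second 5-day library, any single one of the 10-day libraries or either one of the 20-day libraries. From there the transcript fell to 83.5 ± 0.587 CPM at 20 days (SD, n = 2), a change of -0.31 from 10 days (SE 0.04, adjusted p 8.67e-06).

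Over the whole span sir-2.1 was 0.12 higher at 20 days than at 1 day (95% interval 0.03 to 0.22, adjusted p 0.0197), which missed the threshold. This value depended on the scaling, since with plain library totals it was 0.27 (adjusted p 1.2e-05), and without the second 1-day library, the highest of its age, it was 0.16 (adjusted p 0.0047). The difference between 20 and 5 days was -0.17 (adjusted p 0.0025) with TMM scaling but -0.060 (adjusted p 0.222) with plain library totals. It also lost its call without the second 5-day library (-0.15, adjusted p 0.0148), the first 20-day library (-0.17, adjusted p 0.0155) or the second 20-day library (-0.16, adjusted p 0.0245). In each fit without a 20-day library, here and below, the remaining one was assumed to vary like the libraries of the other ages. The rise of 0.43 between 10 days and 1 day (adjusted p 1.68e-08) and the fall between 20 and 10 days held under every alternative tried.

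sir-2.4 (C06A5.11), the SIRT6/7-type gene, lies on the plus strand of chromosome I, with 2 transcripts, a summed exon length of 1033 bases and a coding sequence for 292 residues in WBcel235. Its normalised CPM was 31.3, 32.3 and 31.8 at 1 day, 34.3, 36.3 and 36.9 at 5 days, 28.8, 27.3 and 28.5 at 10 days, and 21.6 and 22.4 at 20 days. No library of one age overlapped with those of another, and from 5 days on each age lay below the one before.

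The mean of sir-2.4 was 35.8 ± 1.35 CPM at 5 days and 31.8 ± 0.514 CPM at 1 day (SD, n = 3 each), a rise of 0.17 (SE 0.05, adjusted p 0.0029). This small step lost its call when only the libraries of these ages were fitted (0.14, adjusted p 0.0268), when only genes with at least 100 counts in every library were used (0.043, adjusted p 0.38), or without the first 1-day library (0.16, adjusted p 0.0125), the third 1-day library (0.16, adjusted p 0.0141), the second 5-day library (0.16, adjusted p 0.0132) or the third 5-day library (0.15, adjusted p 0.0159). The gene fell to 28.2 ± 0.812 CPM at 10 days (SD, n = 3), by -0.35 from 5 days (SE 0.05, adjusted p 2.81e-06), and to 22.0 ± 0.601 CPM at 20 days (SD, n = 2), by -0.36 from 10 days (SE 0.05, adjusted p 5.70e-06). Both later steps were about equal in size on the log2 scale. At 20 days the transcript was -0.53 from 1 day (95% interval -0.64 to -0.43, adjusted p 1.43e-08) and -0.70 from 5 days (adjusted p 3.83e-10), the latest-age differences with the smallest adjusted p among the sirtuins. Between 10 days and 1 day it was -0.18 (adjusted p 0.0019), a call that was lost with plain library totals (-0.13, adjusted p 0.0166) and without the second 10-day library (-0.16, adjusted p 0.0118).

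sir-2.2 (F46G10.7) and sir-2.3 (F46G10.3), the genes for the SIRT4-type mitochondrial enzymes, lie next to each other on the plus strand of chromosome X, 422 bases apart in WBcel235. sir-2.2 has 5 transcripts with a summed exon length of 1335 bases and codes for up to 294 residues, and sir-2.3 has 2 transcripts with 1104 bases and up to 287 residues. Reads that overlap more than 1 annotated gene were not counted in the mode the authors used, and how reads matching both of these related genes equally were placed is not given in the sources used here, so the split between the pair carries that uncertainty.

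The normalised CPM of sir-2.2 was 8.71, 8.92 and 9.55 at 1 day, 7.72, 6.84 and 8.33 at 5 days, 6.71, 5.93 and 5.88 at 10 days, and 6.01 and 5.55 at 20 days. Each age lay below the one before without overlap, except that the 20-day libraries overlapped with those of 10 days. The age means were 9.06 ± 0.439, 7.63 ± 0.753 and 6.18 ± 0.464 CPM at 1, 5 and 10 days (SD, n = 3 each) and 5.78 ± 0.327 CPM at 20 days (SD, n = 2). Behind these values stood 203 to 371 counts per library, for which counting alone gives a coefficient of variation of 5.19 to 7.02%. Between the libraries of an age it was 4.69 to 10.42%, measured on CPM with plain library totals.

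At 20 days sir-2.2 was lower by a log2 change of -0.65 than at 1 day (95% interval -0.85 to -0.46, adjusted p 3.64e-06), and at 10 days by -0.56 than at 1 day (adjusted p 9.25e-06). Both differences held under every alternative. The single steps were less firm, with -0.25 between 5 days and 1 day (adjusted p 0.0158), which missed the threshold, and -0.31 between 10 and 5 days (SE 0.09, adjusted p 0.0066), which passed it. Without the third 5-day library, the highest of its age, the order of these turned round, with -0.33 for the first step (adjusted p 0.0069) and -0.24 for the second (adjusted p 0.0525). The second step also lost its call without the first 5-day library (-0.30, adjusted p 0.0176), the second 10-day library (-0.29, adjusted p 0.0238) or the third 10-day library (-0.27, adjusted p 0.0276). Between 20 and 10 days the change was -0.09 with an interval of -0.29 to 0.11 (adjusted p 0.4100). Between 20 and 5 days sir-2.2 was lower by -0.40 (adjusted p 0.0011), a call lost with plain library totals (-0.29, adjusted p 0.0139) and without the second 20-day library (-0.34, adjusted p 0.0205).

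The normalised CPM of sir-2.3 was 4.12, 4.87 and 4.32 at 1 day, 3.14, 3.29 and 2.86 at 5 days, 3.38, 2.83 and 3.08 at 10 days, and 4.86 and 4.88 at 20 days. The libraries of 5 and 10 days overlapped with each other and lay below all of those of 1 and 20 days. These levels rested on 87 to 304 counts per library, the fewest of the 4 genes, for which counting alone gives a coefficient of variation of 5.74 to 10.7%. The close agreement of both 20-day libraries, with a coefficient of variation of 0.347% on CPM with plain library totals, was tighter than counting error.

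sir-2.3 averaged 3.10 ± 0.217 CPM at 5 days and 4.44 ± 0.390 CPM at 1 day (SD, n = 3 each), a fall by a log2 change of -0.52 (SE 0.11, adjusted p 4.06e-04). Between 10 and 5 days there was no detectable difference, with a change of -0.00 (95% interval -0.24 to 0.24, adjusted p 0.9813). The transcript then rose to 4.87 ± 0.0149 CPM at 20 days (SD, n = 2), against 3.10 ± 0.275 CPM at 10 days (SD, n = 3), a change of 0.66 (SE 0.11, adjusted p 2.59e-05), and it was 0.65 higher than at 5 days (adjusted p 4.02e-05). It was the only sirtuin called higher at 20 days than at 10 or 5 days. At 20 days it stood 0.13 above 1 day with an interval of -0.10 to 0.35 (adjusted p 0.2734), and the 1-day libraries overlapped with those of 20 days. All of these calls of sir-2.3 held under every alternative that could be run.

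**Figure D2:**
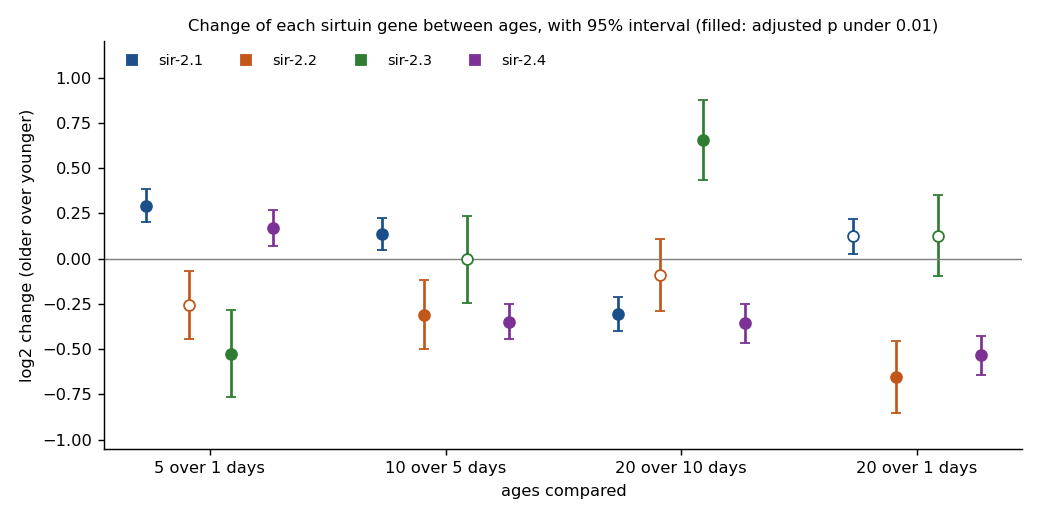
Log2 change of each sirtuin gene, older over younger age (vertical axis), for 4 age comparisons (horizontal axis), with points for edgeR estimates, bars for 95% intervals and filled points for an adjusted p under 0.01. At 20 over 10 days sir-2.3 stood alone above 0 at 0.66, while sir-2.1 at -0.31 and sir-2.4 at -0.36 were called lower.

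In numbers, 3 of the 4 sirtuin genes were called at 5 over 1 days, 2 higher and 1 lower, where 68.4% of all tested genes were called, 34.5% higher and 34% lower. At 10 over 5 days 3 were called, 1 higher and 2 lower, beside 48.4% of all genes, 23.7% higher and 24.6% lower. At 20 over 10 days it was again 3, 1 higher and 2 lower, beside 56.5%, 28.3% higher and 28.2% lower. At 20 over 1 days 2 were called, both lower, beside 76.5% of all genes called in either direction, 38.5% higher and 38% lower. All 4 were called at 10 over 1 days, 1 higher and 3 lower, beside 73.2% of all genes, 35.6% higher and 37.6% lower. At 20 over 5 days it was also all 4, 1 higher and 3 lower, beside 68.3%, 35.3% higher and 33% lower. With 4 genes these shares did not set the sirtuins apart from the rest of the transcriptome. Comparisons that share an age share its libraries and are not independent. With plain library totals the median of all genes moved up by 0.15 at 20 over 1 days, by 0.11 at 20 over 5 days and by 0.10 at 20 over 10 days relative to TMM scaling. The higher share of the calls at 20 over 10 days was then 63.7% instead of 50.02%, so that changes of this size at 20 days depended on the scaling. When only genes with at least 100 counts in every library were fitted and used for TMM scaling, their changes moved by a median of -0.13 at 5 over 1 days and -0.11 at 10 over 1 days. Changes of that size from 1 day thus also depended on the genes used for scaling.

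A trend over age was scored as the mean Spearman correlation with age over the 54 ways of drawing 1 library from each age. sir-2.2 scored -0.87 and sir-2.4 scored -0.80, both past the limit of -0.75 that 18.4% of all tested genes passed on plain CPM. The limit does not require a fall at each step, since sir-2.4 was higher at 5 days (35.8 CPM after TMM scaling) than at 1 day (31.8 CPM). sir-2.1 scored 0.53 and sir-2.3 scored 0.29, below the limit of 0.75 that 27.1% of genes passed. With TMM-scaled CPM, an alternative chosen after seeing the data, the scores were -0.93 for sir-2.2, -0.80 for sir-2.4, 0.40 for sir-2.1 and 0.19 for sir-2.3, beside 22.6% of genes past the upper and 22.1% past the lower limit.

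Compared per length of exon sequence, as RPKM (counts relative to exon length and to the plain library total), sir-2.1 was the most abundant sirtuin transcript at every age. Its mean RPKM was 36.4 ± 1.34, 45.9 ± 2.28 and 50.6 ± 0.662 at 1, 5 and 10 days (SD, n = 3 each) and 44.0 ± 0.597 at 20 days (SD, n = 2). sir-2.4 came second, with 29.7 ± 0.137, 34.4 ± 1.08 and 27.2 ± 0.863 RPKM at 1, 5 and 10 days (SD, n = 3 each) and 22.8 ± 0.474 RPKM at 20 days (SD, n = 2). The libraries of these genes did not overlap at any age.

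The mitochondrial pair lay well below. sir-2.2 had 6.55 ± 0.307, 5.67 ± 0.591 and 4.61 ± 0.350 RPKM at 1, 5 and 10 days (SD, n = 3 each), and 4.64 ± 0.292 RPKM at 20 days (SD, n = 2). sir-2.3 had 3.88 ± 0.263, 2.78 ± 0.186 and 2.80 ± 0.255 RPKM at 1, 5 and 10 days (SD, n = 3 each), and 4.72 ± 0.0164 RPKM at 20 days (SD, n = 2). sir-2.2 was above sir-2.3 in each library up to 10 days, whereas at 20 days sir-2.2 had 4.43 to 4.84 RPKM and sir-2.3 4.71 to 4.73 RPKM, and the libraries of the pair overlapped. This order at 20 days depended on the length used, since per coding length sir-2.2 was at 7.02 ± 0.442 RPKM and sir-2.3 at 6.05 ± 0.0210 RPKM (SD, n = 2 each).

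The ratio of sir-2.2 counts to sir-2.3 counts within a library does not depend on depth or scaling. It was 2.11, 1.83 and 2.21 at 1 day, 2.46, 2.08 and 2.91 at 5 days, 1.98, 2.096 and 1.91 at 10 days, and 1.24 and 1.14 at 20 days. The 20-day ratios lay below all others, with a mean of 1.19 ± 0.0708 (SD, n = 2), against 2.05 ± 0.196 at 1 day (SD, n = 3). An exact permutation test of the F statistic of the log2 ratio over the 4 ages gave p = 0.0024, over 15400 divisions of the libraries of which the smallest possible p is 6.49e-05. Leaving out any single library gave an exact p between 0.0011 and 0.0171. Without either 20-day library that age was left with 1 sample, so that the other ages alone gave the spread, and the exact p was 0.0132 in both cases.

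**Figure D3:**
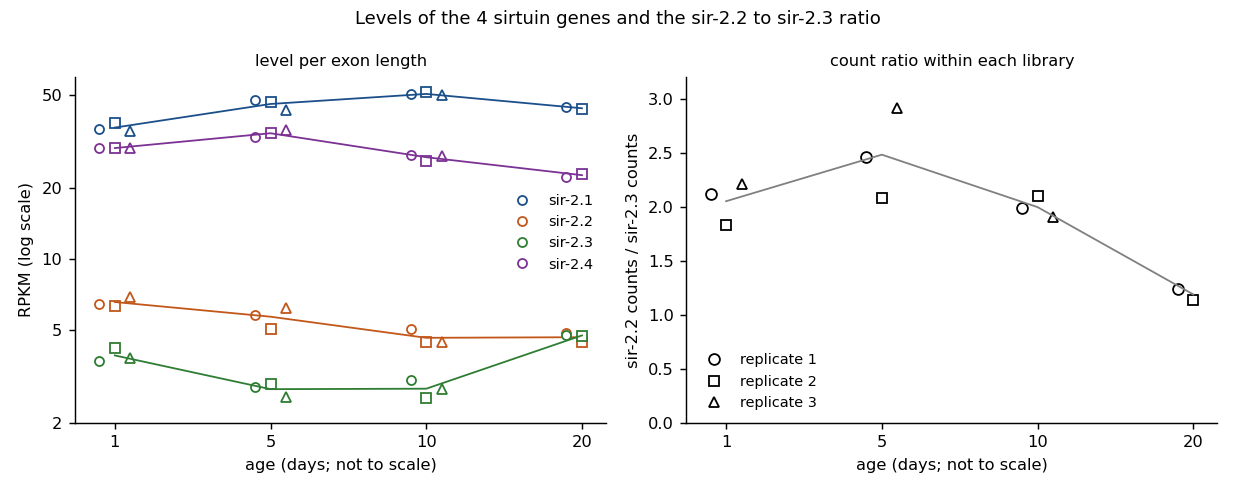
Left, RPKM (log axis) of the 4 sirtuin genes at 1, 5, 10 and 20 days (equally spaced) with 1 symbol per library and lines through the means. Right, the ratio of sir-2.2 counts to sir-2.3 counts in each library on an axis from 0, where the 20-day libraries, at 1.24 and 1.14, lie below the 9 others.

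Over the 11 libraries the levels of sir-2.2 and sir-2.4 correlated with a Pearson r of 0.69 (Spearman 0.67), and those of sir-2.1 and sir-2.3 with -0.76 (Spearman -0.70). The adjacent genes sir-2.2 and sir-2.3 correlated with only 0.13 (Spearman 0.14). These values describe 11 points that fall into 4 ages and share depth and scaling, and no p was computed.

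The genes beside the sirtuin loci were measured for comparison, and 4 of the 6 were called higher and 2 lower at 20 over 1 days, beside 38.5% and 38% of all tested genes. pges-2, on the same strand 103 bases from sir-2.1, fell at each step, by -0.20, -0.21 and -0.32, and was at -0.72 at 20 over 1 days (adjusted p 4.56e-12). ugt-59, of the UDP-glucuronosyltransferase family, overlaps sir-2.1 by 22 bases on the opposite strand and was 1.19 higher at 20 over 1 days (adjusted p 0.0013), at 8 to 44 counts per library. Whether counting used strand is not given in the sources used here.

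On the X chromosome F46G10.2, 242 bases before sir-2.2, was at 0.60 at 20 over 1 days (adjusted p 2.60e-06) and F46G10.4, 199 bases after sir-2.3, was at -1.41 (adjusted p 6.18e-08). So of these 4 genes in a row on the same strand, 1 was called higher, sir-2.2 and F46G10.4 were called lower and sir-2.3 was not called between these ages. Next to sir-2.4, C06A5.3 on the same strand was at 0.23 (adjusted p 1.19e-05). unc-94, which encodes a tropomodulin and overlaps sir-2.4 by 5 bases on the opposite strand, was at 0.92 (adjusted p 1.89e-13). Both neighbours of sir-2.4 were thus higher at 20 days than at 1 day, where sir-2.4 was lower. Single steps were partly alike, since C06A5.3, like sir-2.4, was higher at 5 over 1 days (0.65) and lower at 10 over 5 days (-0.38). unc-94 was higher at both steps, at 0.65 and 0.14. F46G10.4, like sir-2.2, had a lower mean at each later age, at 5.56, 3.76, 2.56 and 2.11 CPM. F46G10.2 was at -0.39, 0.67 and 0.31 over the 3 steps.

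**Figure D4:**
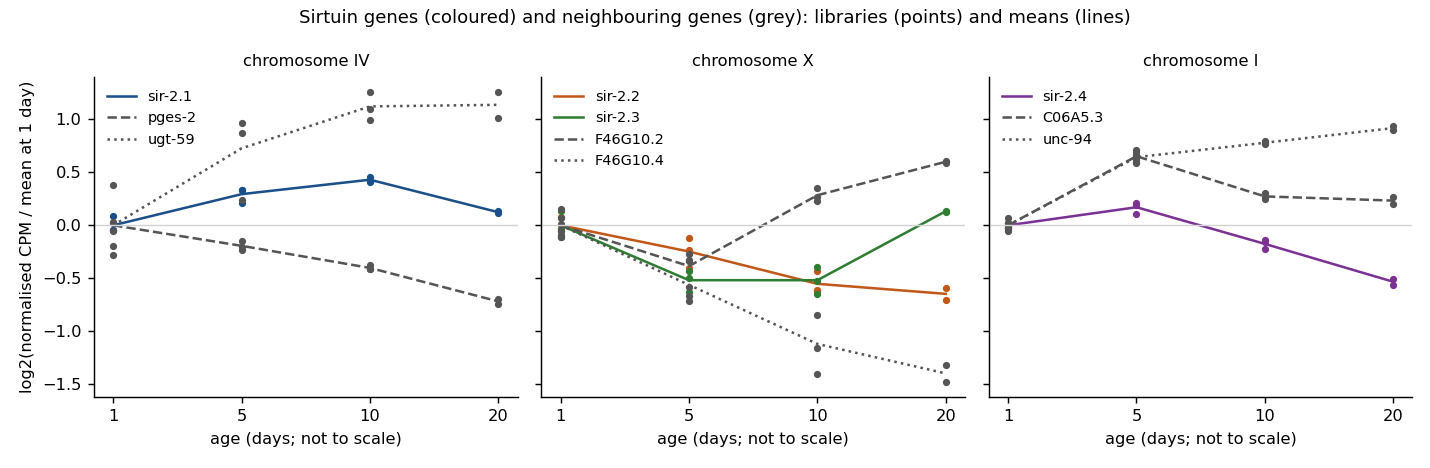
Log2 of normalised CPM relative to the mean at 1 day (vertical axis) at 1, 5, 10 and 20 days (equally spaced) for the sirtuin genes in colour and their neighbours in grey, by chromosome, with points for libraries and lines for means. pges-2 beside sir-2.1 ends at a change of -0.72, unc-94 beside sir-2.4 at 0.92 and F46G10.4 beside sir-2.3 at -1.41.

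Protein deacetylases outside the sirtuins remove acetyl groups with zinc and without NAD+. Of the 8 measured genes of this kind, 5 were called higher and 0 lower at 5 over 1 days, where 34.5% of all tested genes were higher and 34% lower. At 10 over 5 days 1 was higher and 2 lower, beside 23.7% and 24.6% of all genes, and at 20 over 10 days 2 higher and 0 lower, beside 28.3% and 28.2%. At 20 over 1 days 7 were called higher and 0 lower, with a median change of 0.46 beside -0.01 for all tested genes, and where 38.5% of all genes were called higher. With DESeq2 size factors and test, or with the replicate number as a block, 6 of the 8 were called higher, with plain library totals 7, and without any single library 6 or 7. The largest rise was that of hda-4, a class II histone deacetylase, with 52.3 ± 0.881 CPM at 20 days (SD, n = 2) and 28.1 ± 2.71 CPM at 1 day (SD, n = 3), a change of 0.91 (adjusted p 2.22e-11). hda-11, at 28 to 96 counts per library, was the gene not called. Over the same span 0 sirtuin genes were called higher and 2 lower, with a median of -0.21. With plain library totals 1 was higher and 2 lower, with a median of -0.055, and among the 3 with at least 100 counts in every library 0 were higher and 2 lower, with a median of -0.57. The difference between the lists was not tested.

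Sirtuins take NAD+ and release nicotinamide, so genes of NAD+ synthesis and use were counted next. Of 17 such genes, 6 were called higher and 7 lower at 5 over 1 days, beside 34.5% higher and 34% lower over all tested genes. At 10 over 5 days 3 were higher and 9 lower, beside 23.7% and 24.6%, and at 20 over 10 days 5 higher and 7 lower, beside 28.3% and 28.2%. At 20 over 1 days all 17 were called, 7 higher and 10 lower, beside 76.5% of all genes, 38.5% higher and 38% lower, with a median of -0.47. The rises of tir-1 and nnt-1 stood at the top and could not be ranked. tir-1, whose TIR domain cleaves NAD+, was at 129 ± 9.25 CPM at 20 days (SD, n = 2) and 24.1 ± 1.67 CPM at 1 day (SD, n = 3), a change of 2.43 (SE 0.06, adjusted p 1.08e-17). nnt-1, a nicotinamide nucleotide transhydrogenase, was at 11.9 ± 0.439 CPM at 20 days (SD, n = 2) and 2.16 ± 0.607 CPM at 1 day (SD, n = 3), a change of 2.41 (SE 0.14, adjusted p 1.09e-11). The largest fall was in haao-1, an enzyme of the kynurenine route from tryptophan to NAD+, at 0.513 ± 0.0677 CPM at 20 days (SD, n = 2) and 19.8 ± 1.69 CPM at 1 day (SD, n = 3), a change of -5.28 (adjusted p 1.08e-16). With plain library totals and with DESeq2 the count was 7 higher and 9 lower. When only genes with at least 100 counts in every library were tested, 11 of the genes were left, 5 higher and 5 lower, with a median of 0.13.

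Among 5 genes for partners of SIR-2.1 and SIR-2.4, 3 were called higher and 1 lower at 20 over 1 days, where 76.5% of all tested genes were called, and 4 higher and 1 lower with plain library totals. At 5 over 1 days 3 were higher and 2 lower (68.4% of all genes called), at 10 over 5 days 3 higher and 0 lower (48.4%), and at 20 over 10 days 2 higher and 1 lower (56.5%), with medians of 0.31, 0.31 and -0.00 and a median of 0.66 at 20 over 1 days. daf-16, the FOXO factor, was at 282 ± 3.02 CPM at 20 days (SD, n = 2) and 179 ± 11.4 CPM at 1 day (SD, n = 3), a rise of 0.66 (adjusted p 5.72e-11).

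cbp-1, the acetyltransferase that acts on DAF-16, rose by 1.21 (adjusted p 1.41e-14), and hcf-1, which binds and restrains DAF-16, by 0.84 (adjusted p 1.83e-12). The 14-3-3 gene par-5 fell to 630.1 ± 20.2 CPM at 20 days (SD, n = 2), against 1097 ± 28.6 CPM at 1 day (SD, n = 3), a change of -0.80 (adjusted p 2.77e-12). The other 14-3-3 gene, ftt-2, was at 0.075 (adjusted p 0.0882). It was called lower at 5 over 1 days at -0.67 and higher at the later steps, at 0.49 and 0.26.

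Of 6 listed genes for biotin-dependent carboxylases, the type of enzyme that SIR-2.2 and SIR-2.3 bind, 5 were matched. Whether each of them, pod-2 included, encodes a partner is not given in the sources used here. At 5 over 1 days 2 were called higher and 3 lower (68.4% of all tested genes called), at 10 over 5 days 3 higher and 1 lower (48.4%), at 20 over 10 days 1 higher and 4 lower (56.5%), and at 20 over 1 days 2 higher and 2 lower (76.5%), with medians of -0.16, 0.24, -0.23 and -0.066. pod-2, the acetyl-CoA carboxylase of fatty acid synthesis, was at 0.50 at 20 over 1 days (adjusted p 3.01e-09) and pyc-1, pyruvate carboxylase, at 0.31 (adjusted p 2.96e-05). mccc-1, a subunit of methylcrotonyl-CoA carboxylase in leucine breakdown, fell to 74.0 ± 0.681 CPM at 20 days (SD, n = 2), against 139.6 ± 7.14 CPM at 1 day (SD, n = 3), a change of -0.92 (adjusted p 2.61e-12). The propionyl-CoA carboxylase genes pcca-1, at -0.066 (adjusted p 0.1228), and pccb-1, at -0.20 (adjusted p 4.18e-04), both stood higher at 10 days than at 5 days, by 0.39 and 0.49, and lower at 20 than at 10 days, by -0.29 and -0.42. With plain library totals only 1 of the 5 genes was called lower at 20 over 1 days and the median was 0.084.

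**Figure D5:**
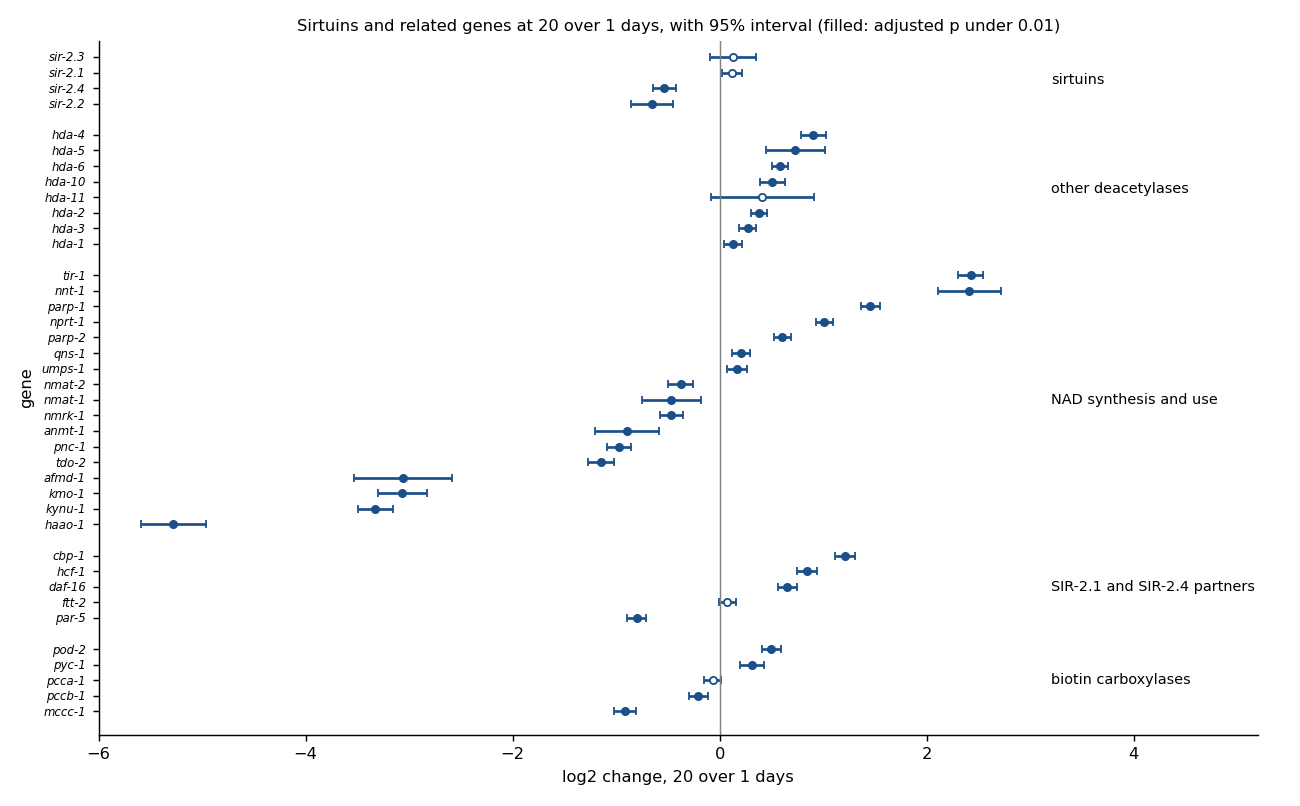
Log2 change at 20 over 1 days (horizontal axis) of the 4 sirtuin genes and of 4 lists of related genes (rows), with bars for 95% intervals and filled points for an adjusted p under 0.01. The deacetylases outside the sirtuins lie to the right of 0, while the NAD+ genes spread from haao-1 at -5.28 to tir-1 at 2.43.

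For each sirtuin the 3 genes with a symbol whose log2(CPM + 1) over the 11 libraries was most like it were looked up among the other 14772 tested genes. For sir-2.1 these were fbxb-84, adr-2 and zyg-12, each at a Pearson r of 0.98. Of them adr-2, of the family of adenosine deaminases acting on RNA, had means of 110.6, 137, 148 and 126 CPM at 1, 5, 10 and 20 days. For sir-2.2 they were paqr-3 (0.97), aps-1 (0.96) and ttr-47 (0.96), the last a transthyretin-related gene at 64.2, 43.8, 25.7 and 23.7 CPM.

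For sir-2.3 they were ins-5 (0.97), cwn-1 (0.97) and pqn-37 (0.96), of which cwn-1, a Wnt ligand, had 7.06, 3.73, 3.66 and 7.34 CPM over the 4 ages. For sir-2.4 they were asp-4, ttr-41 and ges-1, each at 0.99, and asp-4, an aspartyl protease, had 393, 593, 280.1 and 137 CPM. The number of tested genes with r above 0.95 was 55 for sir-2.1, 31 for sir-2.2, 20 for sir-2.3 and 287 for sir-2.4, so that these courses were shared with many genes. The choice was not stable, since with Spearman correlation 0 of the 3 stayed for sir-2.1 and sir-2.4 and 1 of the 3 for sir-2.2 and sir-2.3.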

How the data were processed

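RNA-seq of whole worms gave the deposited table of counts, whole reads per gene that the authors obtained by mapping with TopHat 1.4.1 (version per the labels) to the WS220 genome and counting with HTSeq in mode union, without normalisation. Whether strand was used is not given in the sources used here. Libraries were grouped by the age in their labels. In R 4.3.3, edgeR 4.0.16 was used with TMM factors (0.946 to 1.08) on 14773 genes with at least 100 counts in total, with 1 quasi-likelihood fit over all 4 ages and Benjamini-Hochberg adjustment over all genes at 0.01. The script was tested on simulated data. RPKM used plain library totals and WBcel235 exon lengths. WS220 coordinates were not converted, so only chromosome, strand, length and distance are given. The ratio test used Python 3.11.15 with a pseudocount of 0.5.

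Rows without a gene name (4 rows, 23 counts in all) were negligible. Replicates differed beyond sampling noise in each pair (chi-square per degree of freedom 5.05 to 19.9). Alternatives were library totals, DESeq2 1.42.0, 2 other count filters, fits of only the ages compared, a replicate block and leaving out each library. By rule, the genes named were the 4 sirtuins, the genes for their direct partners, the largest rise and fall of each list at 20 over 1 days, and the 3 genes most like each sirtuin. The neighbouring genes, hda-11, nnt-1, the single tissue markers and the further NAD+ genes of the closing section were named outside this rule, after their values had been seen. The members and lists were chosen with earlier results of these data known. hda-6 and hda-10 stand under other symbols in the table and were matched by sequence name. mccc-2 was not matched.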

Additional observations from a re-analysis of the deposited data

How the results depend on the processing

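Of 402 recomputed values of the 24 gene and interval results, 362 kept direction and call, 28 lost the call, 5 gained it and 7 changed sign, and 14 results kept both under every alternative. The 7 sign changes were all of values that were not called. sir-2.3 at 10 over 5 days was 0.0035 with library totals, 0.0043 with DESeq2 and 0.00085 with no count filter, and -0.063 to 0.053 on leaving out single libraries. sir-2.2 at 20 over 10 days was 0.013 with library totals. Calls were lost with library totals for sir-2.1 (-0.060) and sir-2.2 (-0.29) at 20 over 5 days and sir-2.4 (-0.13) at 10 over 1 days, and gained for sir-2.1 (0.27) at 20 over 1 days. With DESeq2 sir-2.2 at 10 over 5 days (-0.30, adjusted p 0.0134) lost its call. Fits of only the ages compared ended the calls of sir-2.2 at 10 over 5 days (-0.31) and sir-2.4 at 5 over 1 days (0.14), and sir-2.2 at 5 over 1 days (-0.29) passed. With at least 100 counts in every library, a filter that sir-2.3 missed, sir-2.4 at 5 over 1 days (0.043) and sir-2.1 at 20 over 5 days (-0.082) were lost and sir-2.2 at 5 over 1 days (-0.38) passed. Of the 8057 genes then tested, 6061, 4857, 6753, 6435, 6220 and 7795 were called at 5 over 1, 20 over 10, 20 over 1, 10 over 1 and 20 over 5 days and at any age, against 10112, 8349, 11300, 10818, 10088 and 13508, with fewer genes tested. Leaving out single libraries gave, at 5 over 1 days, -0.33 to -0.18 for sir-2.2 and 0.15 to 0.20 for sir-2.4. At 10 over 5 days it gave 0.10 to 0.16 for sir-2.1 and -0.38 to -0.24 for sir-2.2. It gave 0.088 to 0.16 for sir-2.1 at 20 over 1 days, -0.19 to -0.16 for sir-2.4 at 10 over 1 days, and -0.21 to -0.15 for sir-2.1 and -0.48 to -0.33 for sir-2.2 at 20 over 5 days. Apart from the narrower filter, the cause of these shifts was not tested. Per coding length the 1-day levels were 40.6, 9.91, 4.97 and 35.1 RPKM for sir-2.1, sir-2.2, sir-2.3 and sir-2.4. Deviations from the age means of same-numbered libraries of different ages correlated at r -0.08 to 0.11 in 15 pairs, against -0.15 to 0.16 in 30 pairs with different numbers. Deviations from a mean of 2 or 3 libraries depend on each other, so these values cannot settle whether the numbers pair the samples. The replicate block changed no call of a sirtuin, with sir-2.2 to sir-2.3 ratios then at an exact permutation p of 0.0122. sir-2.2 and sir-2.3 rested on 87 to 371 counts per library, fewer than sir-2.1 and sir-2.4.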

Other observations

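Values of further NAD+ genes, singled out after they had been seen and without a test of the group, are given here beside the 76.5% of all tested genes called at 20 over 1 days, 38.5% higher and 38% lower. On the route from tryptophan over kynurenine, tdo-2, the first enzyme, was at -1.14 at 20 over 1 days (adjusted p 1.69e-12, edgeR), afmd-1 at -3.06 (adjusted p 2.37e-10), kmo-1 at -3.07 (adjusted p 7.53e-15) and kynu-1 at -3.33 (adjusted p 1.46e-17), beside haao-1 at -5.28. umps-1, which carries the route on from quinolinic acid in worms, was called higher at 0.17 (adjusted p 0.0024). Genes of nicotinamide and nicotinic acid reuse went both ways. nprt-1, which turns nicotinic acid into its mononucleotide, rose at each step, by 0.64, 0.16 and 0.21, whereas pnc-1, the nicotinamidase, fell at each step, by -0.36, -0.20 and -0.41. The poly(ADP-ribose) polymerase genes, whose products use NAD+, were higher at 20 days than at 1 day, with parp-1 at 1.46 (adjusted p 5.33e-16) and parp-2 at 0.60 (adjusted p 3.62e-11). The 5 intestinal markers summed to 788 to 843 CPM at 1 day, 267 to 271 CPM at 5 days, 133 to 160.1 CPM at 10 days and 228 to 232 CPM at 20 days. At 20 over 10 days 3 of them were called higher, act-5 at 2.05, ifb-2 at 0.65 and elt-2 at 0.59. The other 2 were called lower, ges-1 at -1.28 and vha-6 at -1.23. Most of the 20-day sum was act-5, at a mean of 161 CPM, against 39.0 CPM at 10 days. At that step tdo-2, afmd-1, kmo-1, kynu-1 and haao-1 were called lower, at -0.95 to -1.97. At 5 over 1 days 4 of the intestinal markers were called lower and 1, ges-1, higher at 0.49. Of the kynurenine genes, afmd-1 (-1.14), kmo-1 (-1.01) and haao-1 (-2.485) were called lower at that step. tdo-2 (-0.02) and kynu-1 (-0.01) were not called. The part of intestinal content in these values was not tested.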
